A study of Mus musculus with 16 samples.

Results

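Immediate early genes were followed in 2 immune cell populations of the mouse brain. The set held 10 genes of the 18576 in the tables, chosen by name: Fos, Fosb, Jun, Junb, Jund, Egr1, Egr2, Egr3, Ier2 and Atf3. All 10 were found, and all passed the filter on low counts in every fit. The data came from adult mice that carried either the CD163KO allele (CD163tm1.1(KOMP)Vlcg, a constitutive knockout) or were WT littermates on C57BL/6N, of both sexes. Each mouse had received α-synuclein in both striata, either monomeric (MONO) or as pre-formed fibrils (PFF), so that the MONO groups were injected controls, and no uninjected group was analysed here. The labels give the mice as 12 weeks old at surgery and 3 to 4 months old without saying at which point. At 2 months after surgery, CD11b+ cells of the brain were sorted into microglia (CD45 low to intermediate) and a CD45 high gate called macrophages, which by the methods also takes in neutrophils and NK cells. There was 1 deposited table, called a library here, for each combination of population, sex, genotype and treatment, 16 in all and 8 per population, so p-values measure only the spread between these libraries. The labels and methods also speak of triplicates, and whether a table pools them or holds one of them is not given in the sources used here. The labels give several mice per combination, and mention 2 batches without assigning libraries to them.

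Immediate early genes are transcribed within minutes of a stimulus from factors already present in the cell, without new protein synthesis, and their transcripts are short-lived. Fos and Fosb proteins pair with Jun, Junb or Jund to form AP-1, the Egr proteins are zinc finger factors that act downstream of MAP kinase and serum response factor, Ier2 is a small nuclear protein of the same early wave, and Atf3 is a stress-induced partner of the AP-1 family. In myeloid cells of the brain the same genes are also known to switch on while tissue is digested and cells are sorted, so a level read from sorted cells holds both what the cell did in the animal and what it did in the tube. The 2 cannot be told apart here, because every library went through dissociation and no undissociated tissue was analysed here.

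Fos lies at chr12:85473890-85477274 and Jun at chr4:95049036-95052222. Their promoters are shown because the Fos to Jun ratio differed most between the populations among the 8 ratios to Jun computed. The sequences are the 250 bases before the start of transcription, from RefSeq on GRCm38.p6, on the strand of the gene, and capitals mark matches to short motifs that were searched on both strands (the CREB core TGACG, the longer TGACNTCA, which contains that core where N is G, the AP-1 site TGACTCA, the TATA box TATAAA, and the CArG box of serum response factor).
Fos, chr12:85473640-85473889, plus strand: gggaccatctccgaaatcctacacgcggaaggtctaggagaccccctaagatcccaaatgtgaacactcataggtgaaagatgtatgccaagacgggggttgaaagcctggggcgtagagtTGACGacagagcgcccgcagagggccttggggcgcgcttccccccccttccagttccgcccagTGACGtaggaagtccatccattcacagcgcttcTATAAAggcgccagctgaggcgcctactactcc
Jun, chr4:95052223-95052472, minus strand: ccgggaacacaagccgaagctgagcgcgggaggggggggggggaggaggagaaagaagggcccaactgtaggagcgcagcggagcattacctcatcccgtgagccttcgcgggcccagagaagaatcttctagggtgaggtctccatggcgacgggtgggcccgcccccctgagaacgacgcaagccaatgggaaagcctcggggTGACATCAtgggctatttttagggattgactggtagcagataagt
The Fos window held TGACG, the core that CREB and ATF factors bind, at 2 places, beginning 129 and 66 bases before the start, and a TATAAA beginning 33 bases before it. The Jun window held 1 TGACNTCA, the 8-base form to which Jun and ATF dimers bind, beginning 45 bases before the start, and no TATAAA. Of all 32851 promoter windows of this length, 17.8% held TGACG, 7.49% held TGACNTCA and 12.4% held TATAAA. Promoter windows were found for 7 of the 10 genes, 5 of which (Atf3, Egr2, Fos, Fosb and Junb) held TGACG. Egr2 held a CArG box, as did 1.47% of all windows, and none of the 7 held TGACTCA, which 4.46% did.

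The total of counts assigned to genes was between 8639186 and 21430654 per library. Microglia markers such as Sall1 and Tmem119 summed to between 15441 and 42161 FPKM in microglia and to between 907 and 1762 FPKM in macrophages, while markers of neutrophils summed to between 22090.2 and 134400.0 FPKM in macrophages against 945 to 2699 FPKM in microglia. The macrophage gate was thus rich in neutrophil RNA, and border-associated macrophage markers summed to between 1565 and 4628 FPKM in it. Cd163 had between 748 and 5275 counts in WT macrophages and 0 or 1 in CD163KO macrophages, whereas in microglia it had 0 to 101 counts and did not follow the genotype labels. The microglia library labelled female CD163KO MONO held 799 counts of Y-linked genes, more than in 2 of the 4 male microglia libraries. In both populations the libraries of male WT PFF and male CD163KO MONO stood apart from the other 6. In macrophages their median correlation with the other libraries was 0.655 and 0.737 against 0.911 to 0.929. In microglia their correlations were like those of the other libraries, but Cst3 alone reached 261156 and 237697 FPKM in them against 60306 to 73243. The study excluded male CD163KO MONO for inconsistent technical replicates, so the main fits use the other 7 libraries of a population.

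Fos was the highest of the 10 genes in every macrophage library and in 6 of 8 microglia libraries. In macrophages its FPKM ran from 977 through a median of 1620.3 to 2244, and in microglia from 103 through 389 to 822, so the lowest macrophage library lay above the highest microglia library, as for 3.02% of 9074 genes. The same held after TMM scaling, for 6.69% of genes, with Fos at 1043 to 4826 in macrophages and 121 to 498 in microglia. None of the 10 genes lay wholly above in microglia, against 4.53% of genes as deposited and 7.32% after scaling. Its close relative Fosb, which makes a longer-lived AP-1 partner, was low in both, with a median FPKM of 7.38 in macrophages (3.21 to 21.7) and 9.42 in microglia (2.1 to 27.3). The ranges of Fosb overlapped, and after TMM scaling its median was 9.34 in macrophages and 5.61 in microglia.

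Jun, a strongly activating partner of Fos, had a median FPKM of 47.2 in macrophages (22.5 to 213) and 174 in microglia (31.6 to 544). The 2 highest macrophage values, 213 and 205, were the libraries that stood apart, and the other 6 lay between 22.5 and 56.0. In microglia the same 2 combinations were the lowest, at 38.8 and 31.6, and the other 6 lay between 119.9 and 544. Over all 8 libraries the ranges overlapped. Junb, a weaker activator than Jun, had a median FPKM of 218 in macrophages (74.8 to 533) and 187 in microglia (23.7 to 885). Jund, the family member least dependent on stimuli, was lower, with a median FPKM of 14.1 in macrophages (9.7 to 30.9) and 25.3 in microglia (17.8 to 29.9). After TMM scaling the medians of Jund were 21.2 in macrophages and 15.8 in microglia.

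Egr1, the most abundant of the Egr factors here, had a median FPKM of 82.0 in macrophages (47.7 to 245) and 118 in microglia (24.5 to 479). The order turned after TMM scaling, with medians of 125 in macrophages and 70.6 in microglia. Egr2, known for its part in macrophage and lymphocyte activation, had a median FPKM of 4.84 in macrophages (0.89 to 12.1) and 2.5 in microglia (0.46 to 21.1). Egr3 was close to absent, with at most 58 counts in 15 of 16 libraries and 273 counts in the library labelled female CD163KO MONO microglia, the one that also held Y-linked counts. Ier2 had a median FPKM of 243 in macrophages (160.5 to 698) and 106 in microglia (22.2 to 337), and the ranges overlapped; after TMM scaling they did not, as for Fos, at 251 to 646 and 27.4 to 204. Atf3 ran the other way in the deposited FPKM, with a median of 80.1 in macrophages (42.7 to 212) and 197 in microglia (60.04 to 470).

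**Figure D1:**
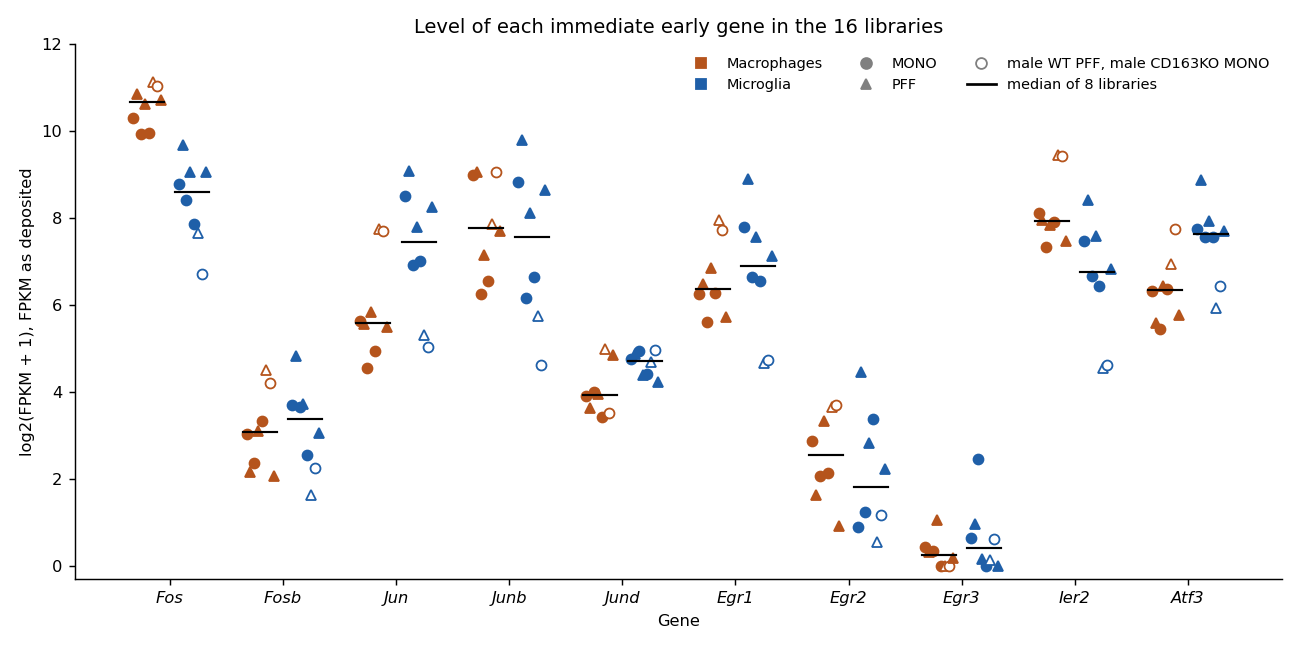
Level of each gene in every library, as log2(FPKM + 1) of the deposited FPKM, with macrophages in orange and microglia in blue, circles for MONO, triangles for PFF, open symbols for the libraries of male WT PFF and male CD163KO MONO and black lines for the median of 8 libraries. Fos in macrophages sits above all microglia, and the open symbols are high in macrophages and low in microglia for Jun, Egr1 and Ier2.

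Microglia held less Fos and Ier2 than macrophages, and more Jun in a call that was lost under 12 of 23 alternatives. In edgeR's quasi-likelihood test over 14 libraries, with sex, genotype and treatment as covariates and counts scaled by TMM (a factor per library that corrects for a few genes taking many of the reads), the log2 fold change of Fos was -2.95 ± 0.30 (SE), with an adjusted p of 5.18e-06. Ier2 had a log2 fold change of -2.20 ± 0.24 with an adjusted p of 1.02e-05. Jun had a log2 fold change of 0.93 ± 0.30 with an adjusted p of 0.0353, which ran up to 0.39 (with all 16 libraries) over the alternatives. Thus 3 of 10 genes passed, against 25.1% of all 12822 genes tested, of which 11.3% were lower and 13.8% higher in microglia. At an unadjusted p under 0.05 there were 5 of 10, against 38.4% of genes, and 3 of 10 had a positive log2 fold change, against 63.4%. Fewer cells of a type and less RNA per cell cannot be told apart in such bulk libraries.

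The other 7 genes did not pass this test, and 5 of them (Junb, Fosb, Egr1, Jund and Atf3) passed under 1 or more alternatives. Junb had a log2 fold change of -1.07 ± 0.47 (adjusted p 0.108), Egr2 of -1.03 ± 0.68 (0.287), Fosb of -0.65 ± 0.34 (0.182) and Jund of -0.44 ± 0.41 (0.456). Egr1 had -0.40 ± 0.25 (adjusted p 0.245), Atf3 0.46 ± 0.20 (0.1) and Egr3 0.55 ± 1.32 (0.79). The median over all genes was 0.51, that is, the median gene stood higher in microglia, whereas the median over the 10 genes was -0.54. Fosb passed with DESeq2 (-0.90, adjusted p 0.00962) and with its size factors in edgeR (0.049), and so did Egr1 (-0.68, adjusted p 0.0164 and 0.0453). Jund passed with neither male WT PFF library (-0.88, edgeR, adjusted p 0.0421). Atf3 passed as higher in microglia with library totals alone (1.58, edgeR, adjusted p 0.00591) and in limma with 1 or 0.1 added to the FPKM (0.00462 and 0.00518). DESeq2 called 34.4% of all genes, the fit with neither male WT PFF library 45.2%, library totals 41.7% and limma 57.2% and 55.7%.

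The zero of this scale depended on how the libraries were scaled. With library totals alone the median gene moved to 1.64, and Fosb, Junb, Jund and Egr1 turned positive, at 0.40, 0.29, 0.50 and 0.75. Measured from the median gene, Fos stood at -3.46 with TMM and -3.44 with library totals, Ier2 at -2.71 and -2.67, Junb at -1.58 and -1.35, Egr1 at -0.91 and -0.89, and Jun at 0.43 and 0.45. The distance of Jun from the median gene was not stable over other settings, at 0.025 with all 16 libraries, 0.13 with no filter on low counts, 0.15 with the combination of sex, genotype and treatment as a replicate block and 0.83 in limma with 1 added. Fos was lower and passed in all 23 alternatives that gave other values than those reported. Ier2 was lower in all of them and missed the threshold with library totals alone (adjusted p 0.0741). Jun was higher in all of them, but the call was lost in 8 of the 14 fits that left out 1 library, with adjusted p of 0.0682 to 0.126. These were the fits without the macrophage libraries of female WT MONO, female WT PFF, female CD163KO MONO, female CD163KO PFF or male WT MONO and those without the microglia libraries of female WT MONO, female WT PFF or male CD163KO PFF. It was also lost with all 16 libraries (0.39), with DESeq2 (0.0938), with its size factors in edgeR (0.122) and with that replicate block (0.0525). Junb passed without macrophage male WT PFF (adjusted p 0.0277), with neither male WT PFF library (0.0335), without microglia male CD163KO PFF (0.0357), with all 16 libraries (0.0368, at -1.50), with DESeq2 (0.019) and with the same replicate block (0.0108).

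**Figure D2:**
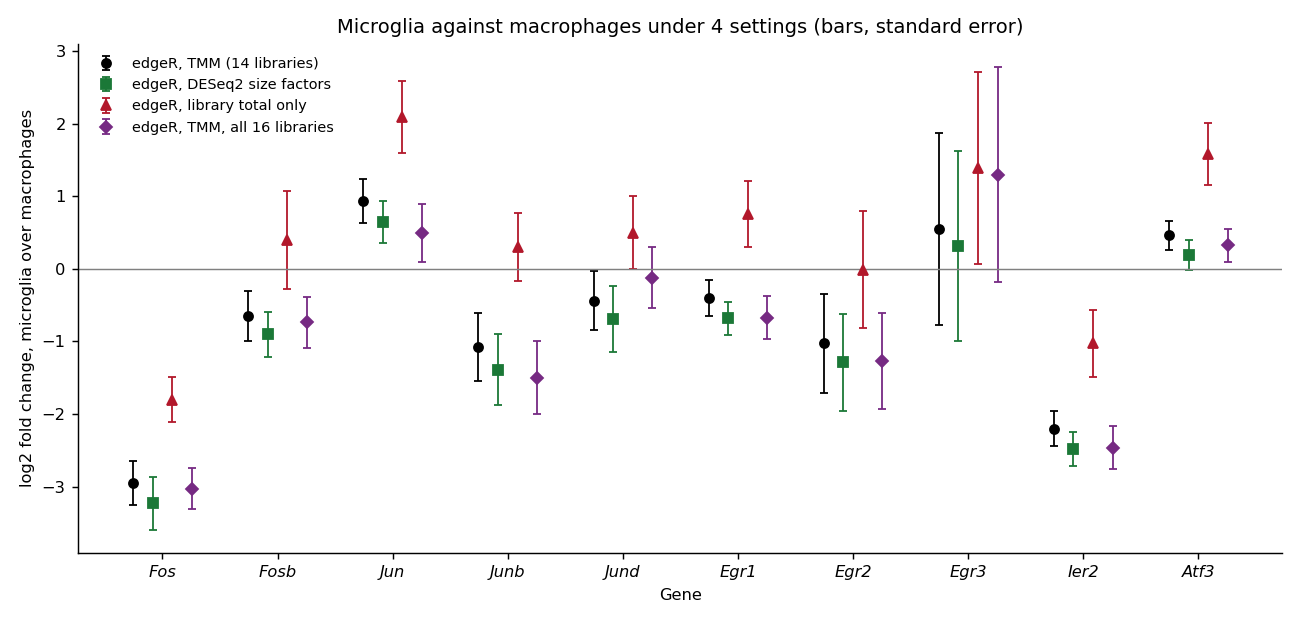
log2 fold change of each gene between microglia and macrophages, with bars of 1 standard error, under the main edgeR fit and under other scalings and with all 16 libraries. Fos and Ier2 lie below 0 under all 4 and Jun above 0, while Fosb, Junb, Jund and Egr1 lie above 0 only with library totals.

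Ratios within a library are free of any such scaling. Fos gave between 52.5% and 74.8% of the summed FPKM of the 10 genes in macrophages, and between 22.8% and 46.9% in microglia. Jun gave 1.64% to 5.59% in macrophages and 9.15% to 19.0% in microglia, and Atf3 gave 1.67% to 5.36% and 11.2% to 26.0%. These shares sum to 100 within a library, so less Fos alone raises the shares of the others. Set against the same sum, 1.74% of 9074 genes lay wholly lower in microglia, as Fos did, and 25.6% wholly higher, as Jun and Atf3 did. Atf3 was not called between populations and stood at -0.04 from the median gene. In macrophages the Fos to Jun ratio of FPKM ran from 10.1 to 43.5, with a median of 30.7. In microglia it ran from 1.21 to 5.13, with a median of 2.09. Among macrophages the lowest Fos to Jun ratios were those of the 2 libraries that stood apart.

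Ratios to Jun were computed for 8 genes over 7 microglia and 7 macrophage libraries. Jun was taken as the denominator after it was seen to be higher in microglia, so lower ratios there follow in part from that choice, and they are a description with no test. For Fos the mean log2 ratio was 1.10 ± 0.69 (SD, n = 7) in microglia and 4.85 ± 0.70 in macrophages. For Ier2 and Egr1 the differences in mean log2 ratio were -3.08 and -1.31. These 3 of 8 genes had ratios in microglia wholly below those in macrophages, against 5.89% of 7000 genes, and 6.74% had no overlap in either direction. For Atf3, a gene that stood higher in microglia in deposited FPKM, the mean log2 ratio to Jun was 0.06 ± 0.59 in microglia and 0.46 ± 0.72 in macrophages, ranges that overlapped. The ratios of Fosb, Junb, Egr2 and Jund to Jun overlapped between the populations too and were lower on average in microglia.

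**Figure D3:**
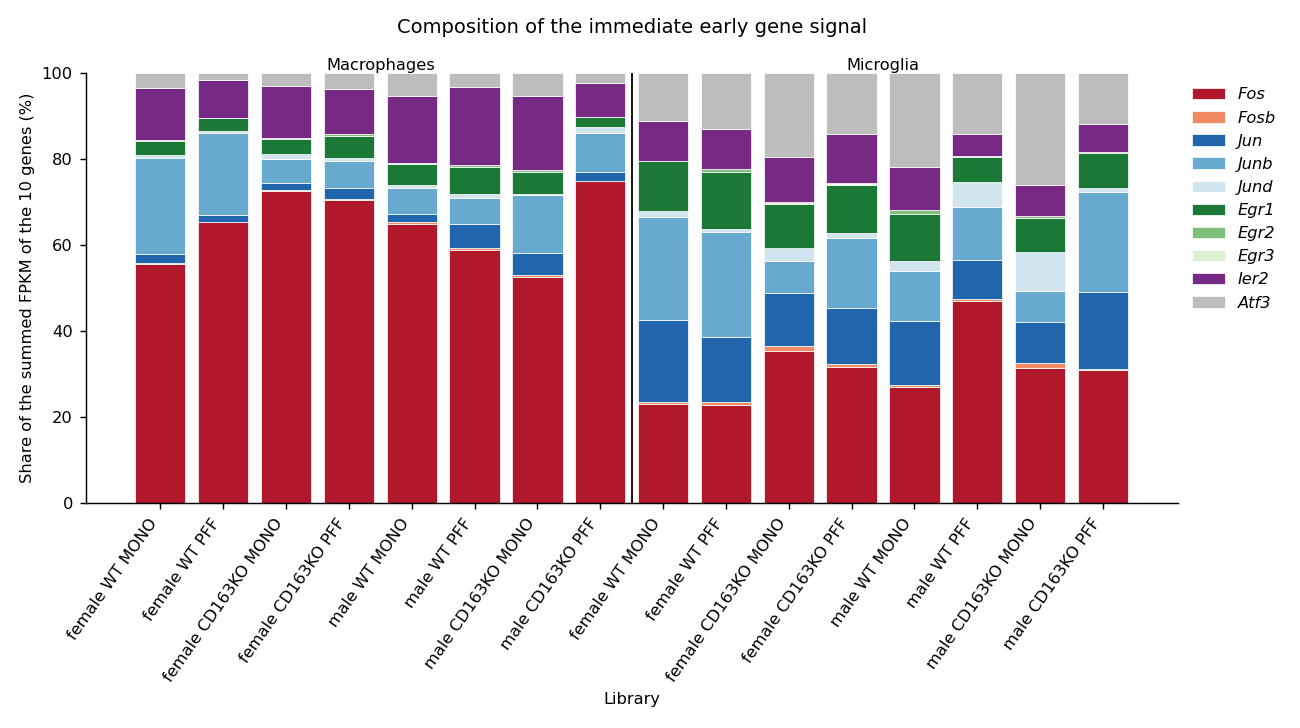
Share of each gene in the summed FPKM of the 10 genes, one bar per library, macrophages on the left and microglia on the right. Fos takes 52.5% to 74.8% of each macrophage bar, and Jun and Atf3 take larger shares of every microglia bar.

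The injection of PFF was compared with MONO to ask whether fibrils changed the cells' early response 2 months later. No gene of the 10 passed the test in either population. In macrophages edgeR called 0 of 11985 genes (0.0%), 125 were under an unadjusted p of 0.05, and DESeq2 called 13. In microglia edgeR called 0 of 12736 genes (0.0%), 693 were under an unadjusted p of 0.05, and DESeq2 called 25. Of the log2 fold changes, 10 of 10 were positive in macrophages, with a median of 0.88 against -0.16 over all genes, and 9 of 10 in microglia, with a median of 0.90 against 0.06 over all genes. A positive value was found for 43.1% of all genes tested in macrophages and 53.8% in microglia. In microglia the log2 fold changes of 10 of 10 microglia markers were positive too, with a median of 0.52. Choroid plexus markers were negative in 7 of 7 (median -0.69), monocyte markers in 5 of 7 (-0.86) and border-associated macrophage markers in 6 of 10 (-0.78). Those of the 3 pituitary markers tested were positive with a median of 7.41, and 2 of them were under an unadjusted p of 0.05. Their summed FPKM was 102 in female WT PFF and 158 in male CD163KO PFF, and at most 8.09 in the other 6 microglia libraries. The part of these markers in the values of the early genes was not tested.

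In macrophages 2 of the 10 genes, Jun and Egr1, were under an unadjusted p of 0.05, against 1.04% of genes. Jun had 48.3 FPKM with MONO and 46.2 with PFF in WT females, 22.5 and 56.0 in CD163KO females, and 29.5 and 213 in WT males. The WT male PFF library, which stood apart, held the high value, and in the WT female pair the deposited FPKM was slightly lower with PFF. The log2 fold change of Jun was 1.41 ± 0.38 (edgeR, p 0.00576, adjusted p 1.0). Egr1 had 74.6 FPKM with MONO and 87.6 with PFF in WT females, 47.7 and 115 in CD163KO females, and 76.3 and 245 in WT males. All 3 pairs were higher with PFF, and the log2 fold change was 1.04 ± 0.31 (edgeR, p 0.00975, adjusted p 1.0). Fos was also higher with PFF in all 3 pairs, at 1256 and 1839 FPKM in WT females, 977 and 1560.4 in CD163KO females, and 996 and 2244 in WT males, with a log2 fold change of 1.12 ± 0.56 (edgeR, adjusted p 1.0).

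The summed neutrophil markers of the macrophage gate were lower with PFF in all 3 pairs of the fit, going from 120785 FPKM with MONO to 22090.2 with PFF in WT and from 98553 to 32798 in CD163KO. In WT males they were 118136 with MONO and 70976.5 with PFF. Their log2 fold changes were negative in 10 of 10, with a median of -0.93 and 2 under an unadjusted p of 0.05, and the library with the highest sum, 134400.0, was male CD163KO PFF. Among the other marker lists, the 3 pituitary markers tested had positive log2 fold changes with PFF, with a median of 2.66 and 1 under an unadjusted p of 0.05, and their summed FPKM was highest in female WT PFF (309). The 4 B cell markers were negative, with a median of -1.97. Monocyte markers were negative in 6 of 8, with a median of -0.66 and 2 under an unadjusted p of 0.05. Choroid plexus markers were negative in 5 of 7 (median -1.53), and endothelium markers were positive in 4 of 5 (0.95). The part of these markers in the values of the early genes was not tested. The log2 fold change of Jun in macrophages was 1.25 without the male WT PFF library. It was 0.96 without the male WT MONO library, the lowest of the 7 fits that each left out a library. The lowest value of Jun over all 16 alternatives was 0.74.

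In microglia 5 of the 10 genes were under an unadjusted p of 0.05, against 5.44% of all genes tested. Fos had 437 FPKM with MONO and 822 with PFF in WT females, 341 and 534 in CD163KO females, and 231 and 199 in WT males. Both female pairs were higher with PFF, and the male pair was lower in deposited FPKM and higher after TMM scaling (130.5 and 432). Its log2 fold change was 1.18 ± 0.39 (edgeR, p 0.0105, adjusted p 0.826). Junb had 454 and 885 FPKM in WT females, 69.9 and 275 in CD163KO females, and 99.2 and 52.5 in WT males. Its log2 fold change was 1.75 ± 0.61 (edgeR, p 0.0144, adjusted p 0.826). The other 3 were Egr1 at 1.01 ± 0.42, Ier2 at 0.83 ± 0.35 and Fosb at 0.82 ± 0.37, with unadjusted p between 0.0313 and 0.0473 and the same adjusted p of 0.826. When 1 library was left out, Fos ran from 0.86 to 1.36, Junb from 1.06 to 2.38, Egr1 from 0.50 to 1.31, Ier2 from 0.49 to 1.08 and Fosb from 0.42 to 1.05. The lowest value of Junb (p 0.106) was without female CD163KO MONO, and those of Egr1 (p 0.41), Ier2 (p 0.326) and Fosb (p 0.463) were without female WT PFF. Over all 16 alternatives the values went lower still, to 0.64 for Fos, 0.39 for Egr1 and 0.25 for both Ier2 and Fosb. In the male WT pair the TMM factor was 0.461 in the PFF library and 1.77 in the MONO library. The direction of Fos, Junb, Egr1 and Fosb in that pair changed with the scaling.

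Pairs of single libraries have no replicate, and a difference of at least 1 in log2(FPKM + 1) was asked for both in deposited and in TMM-scaled FPKM. In WT female microglia 4 genes were past this in the direction of PFF, Fosb, Egr1, Egr2 and Atf3, against 5.87% of the genes compared. Egr2 gave the largest difference, from 0.85 to 21.1 FPKM. In CD163KO female microglia Junb and Egr2 were higher (8.7% of genes) and Egr3 lower (6.14%), with 4.44 FPKM in the MONO library, which also held Y-linked counts. In WT male microglia Egr2 alone was past it and was lower, 9.33 with MONO and 0.46 with PFF, against 20.7% of genes. In macrophages no gene was past it in WT females (1.17% higher), Egr2 was in CD163KO females (13.2%), and Jun, Jund and Egr1 were in WT males (24.1%). Over all 6 pairs Fos, Junb and Egr1 were higher with PFF in 5 in both scalings, as were 0.982% of 7025 genes compared in every pair in at least 5. After TMM scaling Fos, Jun, Junb and Egr1 were higher in 6 of 6, against 2.58% of these genes. Egr3 was too low to be compared in every pair.

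**Figure D4:**
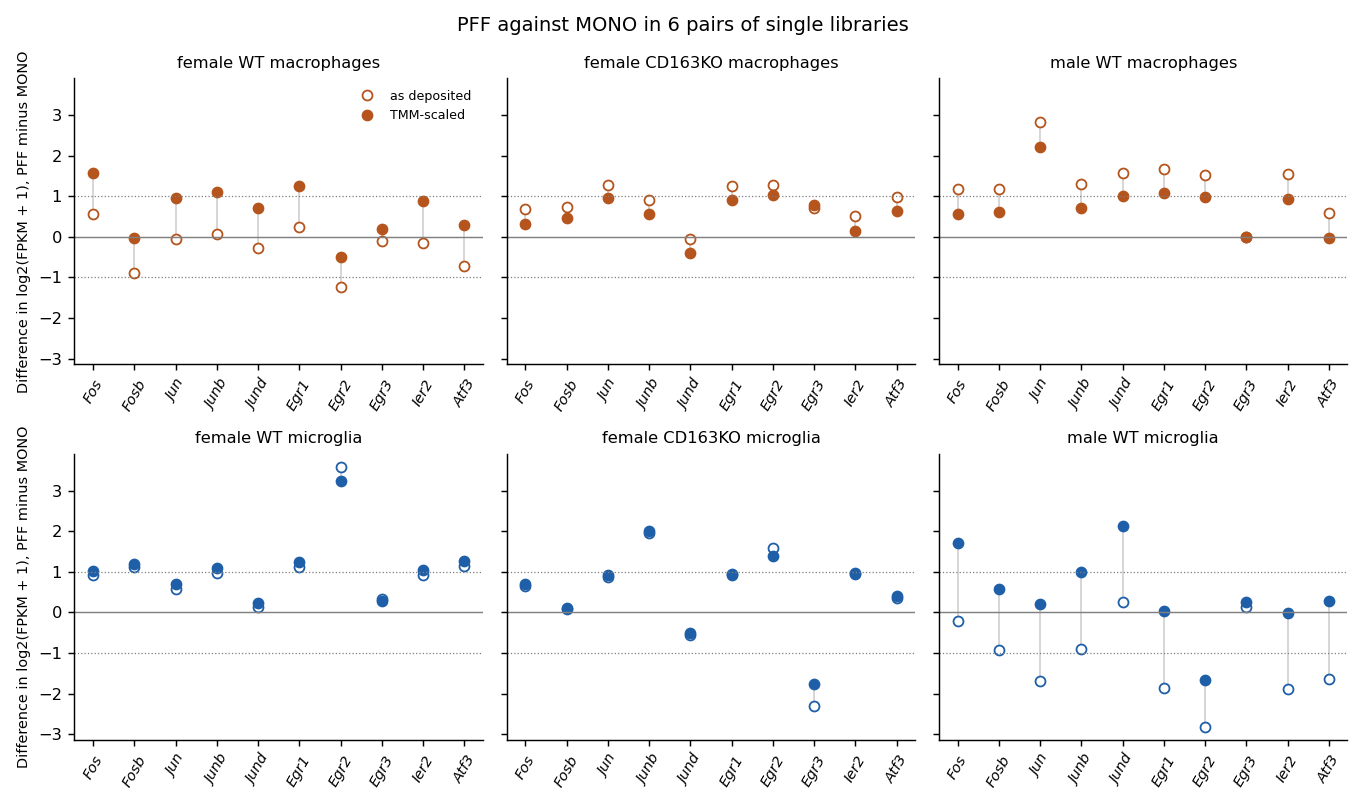
Difference in log2(FPKM + 1) between PFF and MONO for each gene in 6 pairs of single libraries, open circles for deposited and filled circles for TMM-scaled FPKM, with dotted lines at 1 and -1. In female WT microglia Egr2 lies highest, and in male WT microglia the 2 scalings lie on opposite sides of 0 for Fos, Fosb, Jun, Junb, Egr1 and Atf3.

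The difference in response between populations was tested as an interaction. No gene of the 10 passed for treatment or for genotype (edgeR, adjusted p 1.0 for each). Jund had the smallest unadjusted p, 0.11, in the genotype interaction, at -1.43 ± 0.83. For treatment the interaction of Fos was 0.06 ± 0.64 and that of Egr1 -0.02 ± 0.53 (log2 ± SE). For treatment edgeR called 1 of 13700 genes (0.0073%), for genotype 0 (0.0%, with 173 genes under an unadjusted p of 0.05), while DESeq2 called 232 and 194.

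The CD163KO comparison asked whether loss of the haemoglobin scavenger receptor CD163 altered these genes. None of the 10 passed in either population. In macrophages edgeR called 1 of 11985 genes (0.00834%) and DESeq2 2, and in microglia edgeR called 0 of 12736 (0.0%), 171 genes were under an unadjusted p of 0.05, and DESeq2 called 3. In macrophages 7 of 10 log2 fold changes were negative, against 44.2% of all genes, with a median of -0.37 against 0.11 over all genes. In microglia 10 of 10 were negative, with a median of -0.48 against 0.06 over all genes, where 44.6% of all genes were negative. In both scalings the female WT PFF microglia library was the highest of 8 for Fos, Fosb, Jun, Junb, Egr1, Egr2, Ier2 and Atf3. This library was on the WT side here, on the PFF side for treatment and on the female side for sex. With 1 library left out, 0 to 1 of the 10 were positive for genotype. The unadjusted p of each of the 10 was above 0.05 in both populations, where 0.693% of genes in macrophages and 1.34% in microglia were under it, and values in microglia ran from -1.47 ± 0.93 for Egr2 to -0.33 ± 0.37 for Fos. In microglia the microglia markers were negative in 10 of 10 as well, with a median of -0.39, and border-associated macrophage markers in 8 of 10, with a median of -0.75. In macrophages 7 of 7 oligodendrocyte markers and 5 of 5 erythroid markers were negative, with medians of -0.62 and -1.51, as were 4 of 5 endothelium markers (-1.32, 1 under an unadjusted p of 0.05) and 3 of 3 pituitary markers (-1.02), while 4 of 4 B cell markers (0.56) and 9 of 10 border-associated macrophage markers (0.25) were positive. In microglia 5 of 5 erythroid markers (-0.24) and 6 of 7 oligodendrocyte markers (-0.43) were negative. The part of these markers in the values of the 10 genes was not tested.

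Junb gave the widest single-pair differences in females. In female macrophages its FPKM was 505 in WT and 74.8 in CD163KO with MONO, and 533 and 142 with PFF. In female microglia it was 454 in WT and 69.9 in CD163KO with MONO, and 885 and 275 with PFF. In all 4 female pairs CD163KO was thus lower by at least 1.68 in log2(FPKM + 1) in both scalings, in pairs where 15.3%, 2.48%, 13.7% and 4.04% of genes were lower by at least 1. The Y-linked counts mentioned above were in the CD163KO MONO microglia library of these pairs. In male PFF macrophages the FPKM of Junb was 230.2 in WT and 206 in CD163KO. After TMM scaling it was 159 and 426, so the direction in this pair turned with the scaling. In male PFF microglia the FPKM of Junb was 52.5 in WT and 401 in CD163KO. Both male WT libraries were ones that stood apart.

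In female MONO microglia Jun and Egr1 were lower in CD163KO too (13.7% of genes), Jun from 361 to 119.9 FPKM and Egr1 from 220.4 to 98.6. Egr3 was higher there (8.55% of genes). In female PFF microglia Fosb, Jun, Junb, Egr1 and Egr2 were all lower (4.04% of genes), Egr1 from 479 to 187 FPKM and Jun from 544 to 221. No gene of the 10 was higher by at least 1 (2.23% of genes). In male PFF microglia Jun and Junb were higher (12.7% of genes), Jun from 38.8 to 304. In macrophages Egr2 was higher in the female PFF pair (12.1% of genes), from 2.08 to 9.11 FPKM, and in the male PFF pair Egr2 and Fosb were lower (29.0% of genes), Egr2 from 11.6 to 0.89.

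**Figure D5:**
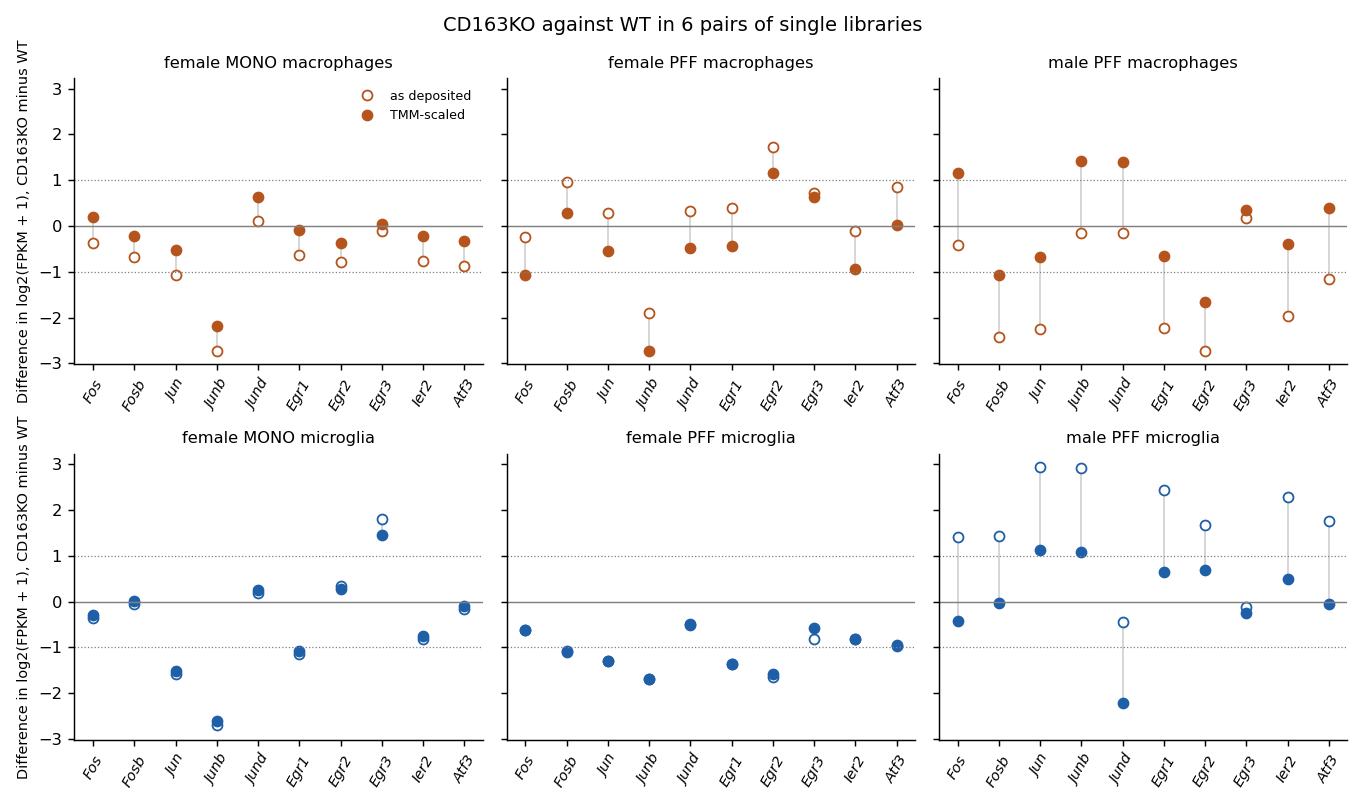
Difference in log2(FPKM + 1) between CD163KO and WT for each gene in 6 pairs of single libraries, open circles for deposited and filled circles for TMM-scaled FPKM, with dotted lines at 1 and -1. Junb lies below -1 in all 4 female pairs and above 1 in male PFF microglia.

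Males and females were compared because the study asked for sex differences. No gene of the 10 passed in either population. In macrophages edgeR called 0 of 11985 genes (0.0%), 161 (1.34%) were under an unadjusted p of 0.05, none of them among the 10, and DESeq2 called 17. In microglia edgeR called 0 of 12736 genes (0.0%), 268 were under an unadjusted p of 0.05 (2.1% of genes), and DESeq2 called 20. In microglia 9 of 10 log2 fold changes were negative, against 57.6% of all genes, and 3 genes were under an unadjusted p of 0.05: Fosb at -1.39 ± 0.38 (p 0.00311), Ier2 at -1.16 ± 0.34 (p 0.00482) and Egr1 at -1.21 ± 0.41 (p 0.0113), each with an adjusted p of 1.0 in edgeR. Ier2 in WT MONO microglia was 177 FPKM in females and 85.3 in males, with PFF it was 337 and 22.2, and in CD163KO PFF it was 192 and 112.

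The sex label of 1 microglia library in that fit, female CD163KO MONO, is in doubt because of its Y-linked counts. Without it Fosb was at -1.29 (p 0.0077), Ier2 at -1.28 (p 0.00349) and Egr1 at -1.36 (p 0.00869), edgeR called 4 genes in all, and none of the 10 passed. Without female WT PFF the unadjusted p of all 3 was above 0.05, with Fosb at -0.99 (p 0.102), Ier2 at -0.89 (p 0.0606) and Egr1 at -0.83 (p 0.123). Without male CD163KO PFF the value of Egr1 was -1.82. In this comparison neutrophil markers were positive, that is, higher in males, in 9 of 10, with a median of 1.30 and 5 under an unadjusted p of 0.05. Heat shock genes were positive in 12 of 12, with a median of 0.51, and erythroid markers in 5 of 5, with a median of 1.07. Their part in the values of the 10 genes was not tested.

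In WT PFF microglia 7 genes, Fosb, Jun, Junb, Egr1, Egr2, Ier2 and Atf3, were lower in males by at least 1 in both scalings, against 13.2% of genes; the male library there is one that stood apart. In WT MONO microglia Fosb, Jun, Junb, Egr1 and Ier2 were lower (17.2% of genes) and Egr2 higher (11.0%). In CD163KO PFF microglia, where neither library stood apart, none of the 10 was past 1 (3.96% of genes higher and 3.26% lower). In macrophages Junb was lower in males in the WT PFF pair (23.3% of genes) and the WT MONO pair (10.2%), and Egr2 in the CD163KO PFF pair (11.9%). In macrophages all 10 log2 fold changes between the sexes were negative with TMM, against 56.3% of all genes, but 7 were positive with library totals alone. Neutrophil markers were positive in 10 of 10 there, with a median of 0.85. Choroid plexus markers were negative in 7 of 7, with a median of -3.42, as were 7 of 7 astrocyte markers (-1.03), 7 of 7 oligodendrocyte markers (-1.32) and 5 of 5 endothelium markers (-1.61), and 9 of 10 microglia markers were negative (-0.54). The part of these markers was not tested.

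Partners, targets and neighbours of the 10 genes were counted in the population comparison, where calls were made. Of 21 other immediate early genes tested, 9 were lower and 4 higher in microglia, where 11.3% of all genes were lower and 13.8% higher, with a median log2 fold change of -0.96 against 0.51 over all genes. The matricellular gene Ccn1 had a log2 fold change of -6.48 ± 0.97, the nuclear receptor Nr4a2 of -5.60 ± 1.54 and the myeloid factor Cebpb of -5.29 ± 1.18. Sgk1, a kinase induced by glucocorticoids and stress, had a log2 fold change of 4.99 ± 0.71. The other 3 that were higher, named after their values were seen, were Rhob at 2.80 ± 0.20, Myc at 1.55 ± 0.40 and Ier5 at 0.79 ± 0.25. Of 12 other AP-1 and bZIP partners, 2 were lower and none higher, which is near the shares over all genes: Fosl2 at -2.29 ± 0.60 and Batf at -1.85 ± 0.59.

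Feedback repressors shut the early response down. Of 18 tested, 9 were lower and 2 higher in microglia, where 11.3% of all genes were lower and 13.8% higher, with a median of -0.96 against 0.51 over all genes. The MAP kinase phosphatases Dusp1, Dusp2 and Dusp5 had log2 fold changes of -2.75 ± 0.36, -5.90 ± 1.09 and -6.63 ± 1.53, and Spry2, an inhibitor of receptor kinase signalling, had -3.41 ± 1.03. The 2 that were higher, named after their values were seen, were Socs3 at 1.56 ± 0.31 and Dusp6 at 1.03 ± 0.23. Of 19 kinases and factors upstream, 5 were higher and none lower, with Rps6ka1, a kinase that phosphorylates Fos protein and CREB, at 1.60 ± 0.17 and Elk3, a partner of serum response factor, at 1.98 ± 0.45, the MAP kinase pathway kinases Map2k1 at 1.06 ± 0.24 and Mapk3 at 1.04 ± 0.31, and, named after its value was seen, Mapk14 at 0.93 ± 0.32.

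Heat shock genes, which dissociation is also known to induce, were counted as well. Of 12 tested, Hspe1 was lower in microglia (-0.95 ± 0.25) and no other passed, with a median of -0.09. Over all genes 11.3% were lower and 13.8% higher, so the count of lower heat shock genes was near that share. Macrophages held a summed FPKM of 707 to 2656 for these genes and microglia 1168 to 3631, ranges that overlapped. Of 10 early cytokine genes, 5 were lower in microglia, against 11.3% of all genes. Log2 fold changes were -6.03 ± 0.86 for Cxcl2, -5.83 ± 1.37 for Cxcl1 and -4.84 ± 0.28 for Ccl2. The other 2, named after their values were seen, were Il1b at -4.43 ± 0.32 and Tnf at -1.31 ± 0.44. Il1a was higher, at 4.44 ± 0.81, as were 13.8% of all genes. All calls in these lists are from edgeR's adjusted p over 12822 genes, and 9 of 10 neutrophil markers were lower in microglia with a median of -7.00. Monocyte markers were lower in 7 of 8 (median -6.25), NK and T cell markers in 6 of 8 (median -6.99) and border-associated macrophage markers in 9 of 10 (median -7.13). The part of these cells in the values of these lists and of Fos and Ier2 was not tested.

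The genes whose pattern over the 8 libraries of a population was most like the mean of the 10, by Pearson's r of log2(TMM-scaled FPKM + 1), were a description with no test. In macrophages Btg2, an early response gene that restrains proliferation, had the highest r, 0.962, among 3736 genes, followed by Acadvl, Tpp1, Ddx5 and Pdia3, the last at 0.919. In microglia the highest r was that of Pip5k1c, 0.906, among 3990 genes, followed by Tagap, Nr4a1 (0.887), Slc29a3 and Lyl1. The genes of a library share its depth and composition, and 4 of the 16 libraries stood apart. Fosb, Jund and Egr2 were each counted on 2 transcripts, whose split is an estimate, and their values are sums.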

How the data were processed

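RNA from sorted cells was amplified and sequenced by SMART-seq2, and the authors deposited, for each of 16 libraries, an expected count (an RSEM estimate, so not always whole) and an FPKM value per RefSeq transcript. Bowtie2, RSEM, DESeq2 and mm10 are named in the submitters' processing notes, and versions were not given in the sources used here. Transcripts were matched to symbols (27627 of 27787, with at most 0.14% of a library's counts unmatched) and summed per gene, with unlisted transcripts set to 0. Expected counts were rounded and tested with edgeR 4.0.16 (quasi-likelihood, TMM over 16 libraries, filterByExpr, Benjamini-Hochberg threshold 0.05) under R 4.3.3, with sex, genotype, treatment and, across populations, population as terms. Male CD163KO MONO was left out, as in the study. Alternatives were DESeq2 1.42.0, its size factors, library totals, limma 3.58.1 on log2(FPKM + 1) or with 0.1 added, no filter, all libraries, no sex covariate and leaving out each library. Pairs of single libraries were compared as differences of log2(FPKM + 1), restricted to genes that reached 1 FPKM in one or both, without a test. Ratios to Jun are given without a test. The ratios, the calls required in both scalings and the fits without male WT PFF were chosen after seeing the data, and the members and lists were chosen with earlier results of these data known. Named were every member, up to 4 called genes per other list with the largest change, and the 5 genes per population most like the members' mean, with a mean scaled FPKM of at least 10. The scripts were tested on simulated data, in which 200 genes were changed 4-fold. The treatment fit recovered 5% of these in macrophages and 53% in microglia, and the population fit 35.5%. A gene that did not pass can thus not be read as unchanged. Depth was 8648751 to 21433841 counts per library, and its counting error was not separated from the spread between libraries.

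Microglia and macrophages of the same sex, genotype and treatment were checked as pairs. Over 7 combinations, the correlation of their deviations was between -0.211 and 0.232 and exceeded 0.1 in 2. The main fits did not treat the libraries as paired, because the methods do not state a pairing. Low correlations cannot exclude that the 2 libraries of a combination shared mice. With the combination as a replicate block the calls of Jun and Junb changed.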

Additional observations from a re-analysis of the deposited data

Results flagged for a closer look

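In groups of 8 libraries, 2 of the 20 groups tested held a library far from the others, and chance gives about 1 in 20. Egr3 in microglia was at 4.44 FPKM in the library labelled female CD163KO MONO, against at most 0.96 in the other 7. Egr3 in macrophages was at 1.07 FPKM in female CD163KO PFF, against at most 0.35 in the other 7. That value was 49 counts, against at most 20 counts in the other 7. Both flags are thus of a gene that was close to absent here.

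In microglia, 3 genes had female pairs and a male pair at least 1 apart in opposite directions in both scalings, and the difference between the sexes was not tested. Over all genes the pattern of Junb and Jun was found for 0.405% of 9873 and that of Egr2 for 0.257% of 9341. Junb was lower in CD163KO than in WT in both female pairs and higher in the male PFF pair, by 1.09 after TMM scaling. Jun was likewise lower in both female pairs and higher in the male pair, by 1.13. Egr2 was higher with PFF than with MONO in both female pairs and lower in the male WT pair, with a TMM-scaled difference of -1.65. The male WT PFF library, which stood apart, is in each of these male pairs. The microglia library labelled female CD163KO MONO, whose sex label is in doubt (799 Y-linked counts), is in a female pair of each of these genes.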

How the results depend on the processing

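Fos and Ier2 were lower in microglia in all 23 alternatives counted (TMM within the fit returned the reported values), with log2 fold changes of -3.23 to -1.80 and -2.48 to -1.03. With library totals, limma with 1 added and limma with 0.1 added, Fosb turned to 0.40, 0.37 and 0.40, Junb to 0.29, 0.054 and 0.052, Jund to 0.50, 0.51 and 0.54 and Egr1 to 0.75, 0.59 and 0.59, and 7 of the 10 genes were then positive. Egr3 turned negative without microglia female CD163KO MONO (-0.83), without microglia male WT PFF (-0.82), with neither male WT PFF library (-0.81) and with the replicate block (-0.46), and was between -0.83 and 1.39 with 1 library left out. Genes called between populations numbered 5345 with library totals, 6759 and 6580 with limma (1 and 0.1 added) and 5765 with neither male WT PFF library. Leaving out 1 library gave 2554 to 5641, the highest without macrophage male WT PFF. Of the 10 genes, 5 were called with DESeq2 and 5 with neither male WT PFF library, where 34.4% and 45.2% of all genes were. The causes were not tested.

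Within populations none of the 10 genes was called when any 1 library was left out. Genes called for treatment in macrophages were 1 with library totals, 13 with DESeq2 and 1 and 4 with limma, and 0 to 4 with 1 library left out. In microglia they were 3 with library totals, 16 with no filter, 25 with DESeq2 and 1 with limma (1 added), and 0 to 1 with 1 library left out. For genotype in macrophages they were 2 with library totals, 2 with DESeq2 and 4 and 5 with limma, and 0 to 5 with 1 library left out. In microglia they were 22 with no filter and 3 with DESeq2, and 0 to 1 with 1 library left out. For sex in macrophages they were 6 with library totals, 1 with no filter, 17 with DESeq2, 6 and 8 with limma and 1 with all libraries, and 0 to 7 with 1 library left out. In microglia they were 5 with library totals, 10 with no filter, 20 with DESeq2 and 5 and 3 with limma, and 0 to 4 with 1 library left out. For the treatment interaction they were 0 with library totals, limma or all libraries, 232 with DESeq2 and 3 with neither male WT PFF library, and 0 to 2 with 1 library left out. For the genotype interaction they were 1 with library totals, 1 with no filter and 194 with DESeq2, and 0 to 1 with 1 library left out.

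Of the 10 genes, those with a positive log2 fold change for genotype in macrophages were 1 with either limma fit, 6 with all libraries and 5 with no sex covariate. In microglia they were 1 with library totals, all libraries or no sex covariate and 2 and 4 with limma, and 0 to 1 with 1 library left out. For sex in macrophages they were 7 with library totals or limma and 2 with all libraries, and 1 to 3 with 1 library left out. In microglia they were 0 with library totals or limma, and 1 to 2 with 1 library left out. Differences of at least 1 between single libraries numbered 12 in deposited FPKM for PFF against MONO and 12 for males against females in macrophages, where TMM-scaled FPKM gave 7 each, and 9 with a pseudocount of 5 for PFF against MONO in microglia, where a pseudocount of 1 gave 14.

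With the combination as a replicate block, 2705 genes and 3 of the 10 were called between populations. Fos was at -2.91, Jun at 0.87 missed the threshold (adjusted p 0.0525, edgeR) and Junb at -0.99 passed it (adjusted p 0.0108). Whether the 2 libraries of a combination came from the same mice is not given in the sources used here. Of the 7 combinations, 4 correlated best with their own match.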
